A study of Mus musculus with 6 samples.

Results

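Hepcidin, the peptide hormone encoded by Hamp, and 9 further genes of hepatic iron handling (Hamp2, Tfrc, Tfr2, Trf, Slc40a1, Fth1, Ftl1, Hfe and Id1) were examined in livers of mice after acute ethanol exposure and of control mice. They were taken by gene symbol, and all 10 were found among the 28880 genes of the expression table and passed the filter on low counts that kept 16717 genes for testing. The animals were male wild type C57BL/6J mice aged 6 to 8 weeks, with 3 libraries of liver RNA per group, each from 1 mouse, and a single batch label. The 3 ethanol-exposed mice went without food for 12 h, received 50% ethanol by mouth once at 6 g/kg, and gave liver 24 h afterwards, whereas the 3 control mice received no ethanol. The labels do not state whether the controls were fasted or gavaged, so ethanol, fasting and gavage cannot be told apart. The comparison addresses how a single ethanol dose changes the liver transcriptome, here for the genes that set how much iron the liver takes up, stores and lets into the blood.

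Hepcidin is made by hepatocytes and binds ferroportin (Slc40a1), the iron exporter, which is then degraded, so that iron stays inside macrophages, hepatocytes and enterocytes. Its transcription is known to be raised by BMP ligands through SMAD factors, with Hfe, Tfr2 and hemojuvelin as helpers, and by IL-6 through STAT3. Transferrin (Trf) carries iron in plasma, the transferrin receptor (Tfrc) brings it into cells, and ferritin, built from heavy (Fth1) and light (Ftl1) subunits, stores it. Id1 is a target of the BMP and SMAD route and is often read beside hepcidin.

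Mice carry a pair of hepcidin genes, and their promoters are shown because the known BMP and STAT3 inputs meet there. The 150 bases before each start, on the minus strand, are given from RefSeq (GRCm38.p6), for Hamp at chr7:30944030-30944179 and for Hamp2 at chr7:30924182-30924331. Capitals mark GGCGCC, the core of a BMP response element, and TTCNNNGAA, the STAT motif, both searched on both strands and not overlapping each other.
Hamp: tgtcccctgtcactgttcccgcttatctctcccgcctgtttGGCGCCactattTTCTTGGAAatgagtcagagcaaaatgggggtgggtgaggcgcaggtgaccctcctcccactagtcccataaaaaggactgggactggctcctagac
Hamp2: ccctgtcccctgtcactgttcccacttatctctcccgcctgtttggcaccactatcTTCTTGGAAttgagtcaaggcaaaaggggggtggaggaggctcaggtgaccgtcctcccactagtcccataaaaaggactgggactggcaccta
In Hamp, GGCGCC lay at bases -109 to -104 and the STAT motif at -97 to -89. In Hamp2 the STAT motif lay at -94 to -86 and GGCGCC was not found in the window of 300 bases around the start. Of 32851 RefSeq promoter windows of that length, 11.9% held GGCGCC and 8.3% held TTCNNNGAA, so either motif alone is common, and a match describes letters only. Among the members, 7 matched entries with 11 windows in all (Hamp, Hamp2, Tfr2, Ftl1, Hfe, Tfrc and Fth1), and the only further match was GGCGCC at -89 to -84 of one Tfrc window. Trf, Slc40a1 and Id1 had no entry.

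The ends of the coding sequences are shown because they encode the mature hormone and tell the copies apart. Each is 75 coding bases and the stop codon, read from the GENCODE M21 transcripts, with capitals at the 14 bases that differ.
Hamp: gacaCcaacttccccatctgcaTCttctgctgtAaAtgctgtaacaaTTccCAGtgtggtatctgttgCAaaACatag
Hamp2: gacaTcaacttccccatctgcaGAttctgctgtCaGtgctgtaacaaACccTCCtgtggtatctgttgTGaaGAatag
Over the 410 aligned bases of the whole transcripts, Hamp and Hamp2 were 94.6% identical, their longest shared run was 87 bases, and 16.6% of the 50-base windows of Hamp occurred unchanged in Hamp2. Reads were paired and 150 bases long, and how ambiguous reads were counted is not given in the sources used here, so the division of counts between this pair is uncertain, above all for Hamp2. The antisense gene Gm44662, which overlaps both, had 9 to 36 counts, and whether counting used the strand is not given in the sources used here. In the coordinates of the expression table, Hamp (ENSMUSG00000050440) spans 30641793 to 30643457 and Hamp2 (ENSMUSG00000056978) 30621814 to 30624106 of chromosome 7. Although the submitters' notes name GRCm38, only 539 of 27049 genes shared with GENCODE M21 had the same start and end there, so these coordinates are not joined to the promoter coordinates above.

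Libraries held 60514417 to 74210869 counts on genes. Levels are given as CPM, counts scaled to library size and corrected by TMM, a normalisation that assumes most genes do not change, and, where genes are compared with each other, as FPKM, which is scaled to transcript length. The TMM factors differed strongly between the groups, at 0.768 to 0.836 in ethanol-exposed and 1.26 to 1.27 in control libraries. Scaling by library size alone moved the median log2 fold change over the tested genes from -0.04 to -0.71, so directions of genes with small differences depend on the scaling and are given with both. The third ethanol-exposed library stood apart from the other ethanol libraries, with a chi-square per degree of freedom of 386 and 496 against them compared with 144 between those, and results that rest on it are given without it. DEGs had an adjusted p under 0.05 (edgeR's quasi-likelihood test, Benjamini-Hochberg over all genes tested) and a log2 fold change beyond 1.

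Hepcidin was strongly upregulated. Hamp measured 1725, 1550 and 1288 CPM in the ethanol-exposed mice and 50.7, 70.5 and 58.8 CPM in the control mice. The groups did not overlap, and the lowest ethanol-exposed mouse was far above the highest control mouse. The mean was 25.3-fold higher, with a log2 fold change of 4.66 (SE 0.19, n = 3 per group, edgeR adjusted p = 4.51e-05). In raw counts Hamp had 99279, 94811 and 70282 reads in the ethanol-exposed mice and 4758, 5374 and 4845 in the control mice, so counting error is small. Ranked by FPKM among all genes, Hamp stood at positions 39, 36 and 53 in the ethanol-exposed mice and at 298, 232 and 263 in the control mice. The log2 fold change of Hamp lay between 3.99 and 4.79 under 18 alternative scalings, filters, tests and left-out libraries, and Hamp was a DEG in all of them.

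**Figure D1:**
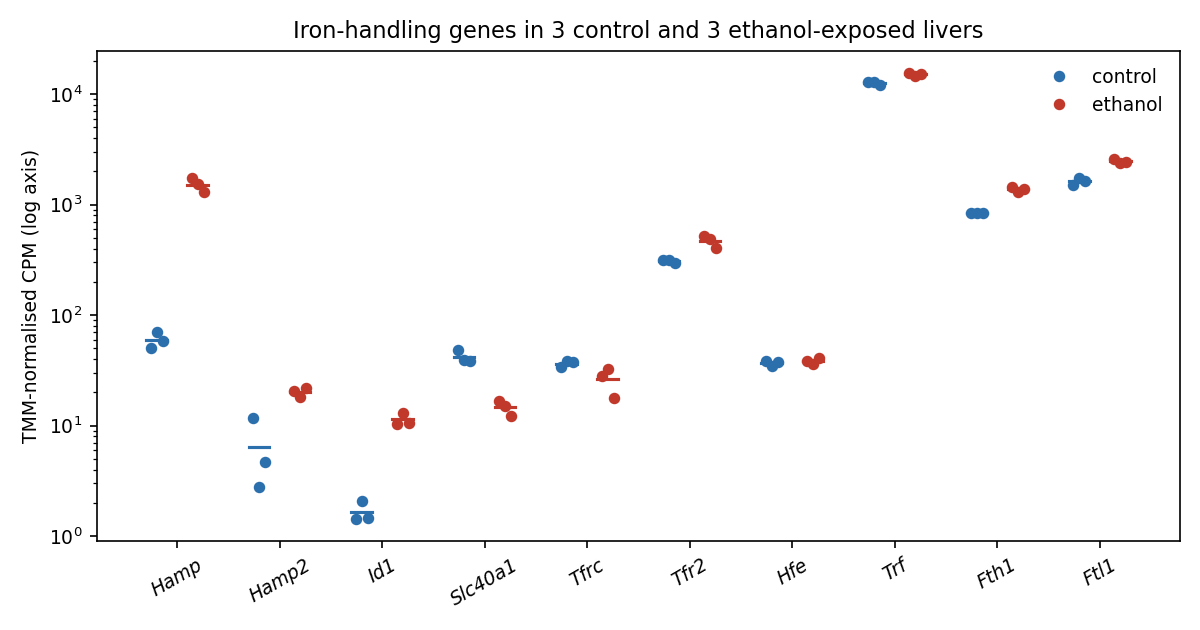
Levels of the 10 iron-handling genes as TMM-normalised CPM on a log axis, with 1 point per liver (3 control, blue, and 3 ethanol-exposed, red) and a bar at each group mean. Hamp rises from between 50.7 and 70.5 CPM in controls to between 1288 and 1725 CPM, and Slc40a1 falls from between 38.4 and 48.8 CPM to between 12.3 and 16.6 CPM. The smaller differences of Tfr2, Trf, Ftl1 and Hfe change sign with library size alone.

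Ratios between genes of the same library do not depend on the scaling of libraries. Relative to albumin (Alb), another hepatocyte product, the FPKM of Hamp was 0.0926 ± 0.0139 (SD, n = 3) in ethanol-exposed and 0.00656 ± 0.00162 (SD, n = 3) in control mice, a 14.1-fold difference. Relative to transferrin, also secreted by hepatocytes, it was 0.900, 0.855 and 0.687 in the ethanol-exposed mice and 0.0320, 0.0445 and 0.0393 in the control mice. Hepcidin mRNA thus came close to the level of transferrin mRNA in the ethanol-exposed livers, while it lay far below it in every control liver. An exact two-sided permutation test gave p = 0.1 for both ratios, the smallest p that 3 against 3 libraries allow. The 8 hepatocyte markers examined had summed levels of 133674 to 138450 CPM in ethanol-exposed and 70323 to 81783 CPM in control mice. By the DEG rule 3 of 8 were upregulated, with a median log2 fold change of 0.84. Of all genes tested, 10.4% were upregulated and 13.8% downregulated by this rule, with a median of -0.04. The marker shift depends on the scaling. With library size alone the sums were 102566 to 114181 CPM against 88391 to 103434 CPM and overlapped. In summed FPKM they were 46455 to 50940 against 39878 to 45848. In FPKM 3 of the 8 were higher in every ethanol-exposed mouse, 2 (Ttr and Cps1) lower and 3 (Alb among them) overlapping, where of all genes tested 9.45% were higher and 57.4% lower without overlap. In whole tissue a change in the share of a cell type and a change in RNA per cell cannot be told apart.

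The second hepcidin gene, Hamp2, was called as upregulated with less certainty. Hamp2, whose product is not known to regulate iron, measured 20.5, 18.1 and 22.1 CPM in the ethanol-exposed mice and 11.8, 2.78 and 4.72 CPM in the control mice. The ethanol-exposed mice lay close together, and the control mice spread widely, with 1 control near the ethanol-exposed levels. The mean was 3.14-fold higher, and the log2 fold change was 1.65 (SE 0.48, edgeR adjusted p = 0.0287). Only 7 of 17 alternatives kept the call, with log2 fold changes of 0.98 to 2.42. Leaving out the second control, the third control or the first ethanol-exposed library gave edgeR adjusted p of 0.0526, 0.105 and 0.0671, whereas leaving out the first control library gave a log2 fold change of 2.42 (edgeR adjusted p = 0.00400). The call was also lost with library size alone (0.98, edgeR adjusted p = 0.115) and without the filter on low counts (1.61, edgeR adjusted p = 0.0523). The number of Hamp reads per Hamp2 read was 84.2, 85.9 and 58.3 in the ethanol-exposed mice and 4.30, 25.3 and 12.5 in the control mice. Every ethanol-exposed ratio exceeded every control ratio, with a mean of 76.1 ± 15.5 (SD, n = 3) against 14.0 ± 10.6 (SD, n = 3). With the counts of both genes summed, the log2 fold change was 4.54 (edgeR adjusted p = 3.79e-05). Which part of the Hamp2 difference comes from reads of Hamp was not tested.

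Id1, which encodes an inhibitor of DNA-binding transcription factors, was upregulated from a low level. It measured 10.4, 13.1 and 10.6 CPM in the ethanol-exposed mice and 1.44, 2.07 and 1.46 CPM in the control mice. The groups did not overlap, and the difference was 6.88-fold (log2 fold change 2.78, SE 0.22, edgeR adjusted p = 2.05e-04). Behind these levels stood 581 to 800 reads per ethanol-exposed and 120 to 158 per control library. Id1 was a DEG under all 16 alternatives that kept it above their filter, with log2 fold changes of 1.63 to 2.97.

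Ferroportin was downregulated. Slc40a1 measured 16.6, 15.2 and 12.3 CPM in the ethanol-exposed mice and 48.8, 39.2 and 38.4 CPM in the control mice. All ethanol-exposed mice lay below all control mice, and the mean of the controls was 2.87-fold the mean of the ethanol-exposed mice. The log2 fold change was -1.52 (SE 0.16, edgeR adjusted p = 5.45e-04), and it stayed between -2.19 and -1.34 as a DEG under the 16 alternatives that kept the gene. Ferroportin is abundant in Kupffer cells, the resident macrophages of the liver, and none of the 10 Kupffer cell markers was a DEG, although Clec4f and Csf1r were lower by adjusted p. The summed Kupffer markers were 123 to 168 CPM in ethanol-exposed and 153 to 170 CPM in control mice on the TMM scale. With library size alone they were 102.7 to 130.9 CPM against 193.5 to 213.7 CPM, and in FPKM all 10 were lower in every ethanol-exposed mouse. Lower values are the general direction on those scales, since 57.4% of all genes tested were lower in FPKM in every ethanol-exposed mouse and the median log2 fold change over all genes was -0.71 with library size alone, so the lower sums were not read as particular to Kupffer cells. Per read of Clec4f, a Kupffer cell lectin, there were 0.440, 0.523 and 0.356 reads of Slc40a1 in the ethanol-exposed mice and 1.13, 0.949 and 0.833 in the control mice. The ratio was lower in every ethanol-exposed mouse (0.453 of the control mean, exact two-sided permutation p = 0.1, the smallest possible). Set against each of the 10 Kupffer markers in turn, the ratio was lower in every ethanol-exposed mouse, at 0.281 to 0.571 of the control mean. Against markers of sinusoidal endothelial cells the result varied with the marker. The ratio was lower without overlap for 5 of 8 (Stab2, Stab1, Lyve1, Pecam1 and Fcgr2b) and overlapped for Clec4g, Kdr and Oit3, at 0.727, 1.14 and 0.886 of the control mean. Among these 8 markers 1 was upregulated (Lyve1) and 3 were downregulated, beside 10.4% and 13.8% of all genes tested. Their sum of 99.0 to 170 CPM in ethanol-exposed and 138 to 152 CPM in control mice rested on Lyve1, and without it the other 7 summed to 74.7 to 100.5 CPM against 134.1 to 148.1 CPM, lower in every ethanol-exposed mouse. The part of endothelial cells in the Slc40a1 difference was not tested.

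Among the 10 genes, 3 were upregulated (Hamp, Hamp2 and Id1), 1 was downregulated (Slc40a1) and 6 were not DEGs. Of all genes tested, 10.4% were upregulated and 13.8% downregulated by the same rule. On the adjusted p alone 7 of the 10 passed, against 43.0% of all genes tested, and in 9 of the 10 the CPM of the groups did not overlap, against 59.0% of all genes tested. Non-overlapping groups are thus frequent in these livers and do not single out these genes. The median log2 fold change was 0.60 for the 10 genes and -0.04 for all genes tested on the TMM scale, and -0.07 and -0.71 with library size alone, so the sign of the former depends on the scaling. Leaving out the third ethanol-exposed library gave the same counts of 3 and 1.

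**Figure D2:**
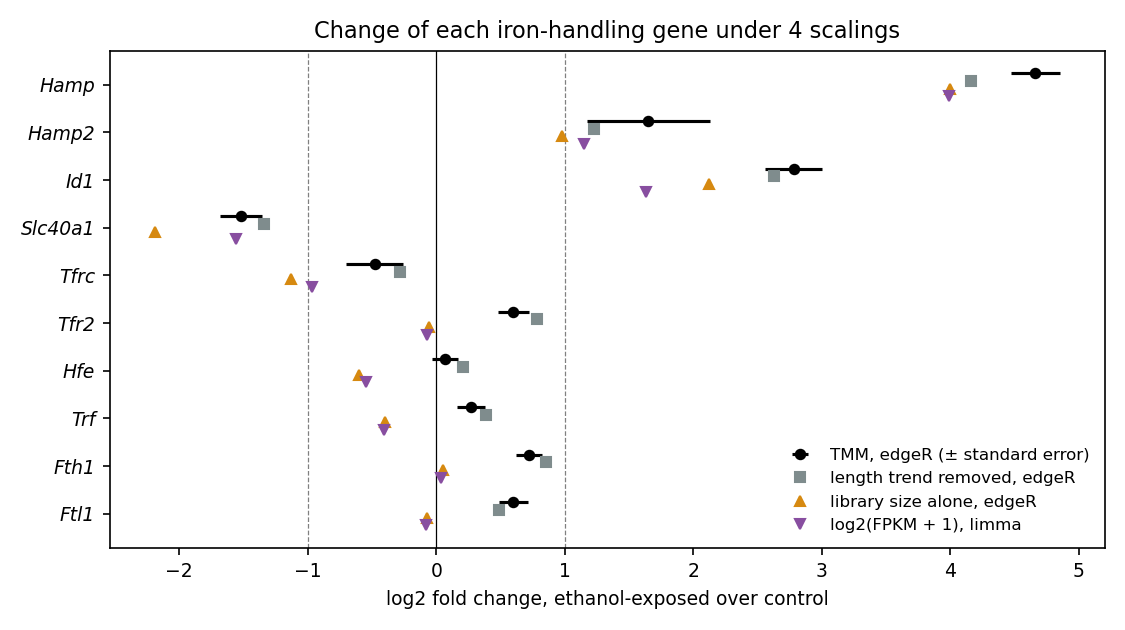
Log2 fold change of each of the 10 genes, ethanol-exposed over control, under 4 scalings: TMM in edgeR with its standard error (black), transcript length trend removed (grey), library size alone (orange) and limma on log2(FPKM + 1) (purple), with dashed lines at the fold threshold. Hamp, Hamp2, Id1 and Slc40a1 keep their side of 0, Tfr2, Trf, Ftl1 and Hfe cross it, and Fth1 drops from 0.72 to near 0.

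The receptors and sensors of transferrin iron showed smaller differences. Tfrc, which imports transferrin-bound iron, measured 28.4, 32.5 and 17.6 CPM in the ethanol-exposed mice and 33.8, 38.1 and 37.5 CPM in the control mice. The groups did not overlap, but 1 ethanol-exposed mouse lay just below the lowest control, and the log2 fold change of -0.48 did not pass the test (SE 0.22, edgeR adjusted p = 0.113). With library size alone it was -1.13 and passed (edgeR adjusted p = 0.00564). Without the third ethanol-exposed library, the lowest of the group, it was -0.25 (edgeR adjusted p = 0.0775). Tfr2, the hepatocyte receptor that senses transferrin saturation, measured 515, 489 and 403 CPM in the ethanol-exposed mice and 313, 314 and 299 CPM in the control mice. The log2 fold change of Tfr2, 0.60 (SE 0.12, edgeR adjusted p = 0.00739), was below the fold threshold, and with library size alone it was -0.06. In FPKM the groups overlapped, with 80.2 ± 11.8 (SD, n = 3) against 83.9 ± 2.43 (SD, n = 3). Per unit of Tfrc FPKM, Tfr2 reached 25.9, 21.5 and 32.7 in the ethanol-exposed mice and 13.2, 11.8 and 11.4 in the control mice. This ratio, independent of library scaling, was 2.2-fold higher, with no overlap between the groups (exact two-sided permutation p = 0.1, the smallest possible). Hfe, a partner of the transferrin receptors in iron sensing, measured 36.3 to 40.6 CPM in ethanol-exposed and 34.3 to 38.2 CPM in control mice. These ranges overlapped (log2 fold change 0.07, edgeR adjusted p = 0.617), whereas in FPKM Hfe was 7.93 ± 0.205 (SD, n = 3) against 12.1 ± 0.679 (SD, n = 3) without overlap, and with library size alone its log2 fold change was -0.60.

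Transferrin and the ferritin subunits were the most abundant mRNAs of the set in control livers, and none was a DEG. Trf measured 15533, 14679 and 15189 CPM in the ethanol-exposed mice and 12821, 12825 and 12125 CPM in the control mice. The log2 fold change of Trf was 0.27 (SE 0.11, edgeR adjusted p = 0.0851) and turned to -0.40 with library size alone (edgeR adjusted p = 0.0177). Fth1, the ferroxidase subunit of ferritin, measured 1437, 1313 and 1394 CPM in the ethanol-exposed mice and 844, 833 and 844 CPM in the control mice. The controls were nearly identical and the groups well apart on this scale (log2 fold change 0.72, SE 0.10, edgeR adjusted p = 0.00175), yet in FPKM Fth1 was 295 ± 6.10 (SD, n = 3) against 286 ± 2.35 (SD, n = 3). Ftl1, the light subunit, measured 2587, 2383 and 2421 CPM in the ethanol-exposed mice and 1508, 1742 and 1642 CPM in the control mice. The log2 fold change of Ftl1 was 0.60 (SE 0.11, edgeR adjusted p = 0.00551), and -0.07 with library size alone. The ratio of Ftl1 to Fth1 FPKM overlapped between the groups, at 4.62 ± 0.112 (SD, n = 3) in ethanol-exposed and 5.03 ± 0.39 (SD, n = 3) in control mice (exact two-sided permutation p = 0.3). Reads of Ftl1 can be shared with copies elsewhere, since 73.4% of its 50-base windows occur in the pseudogene Ftl1-ps1. That copy had 2519 to 2667 counts per library and a log2 fold change of 0.57 (edgeR adjusted p = 0.00865), close to that of Ftl1, and with the counts of the Ftl1 copies added Ftl1 measured 0.59 (edgeR adjusted p = 0.00553). The antisense gene Gm10252 at Ftl1 had 23 to 167 counts.

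**Figure D3:**
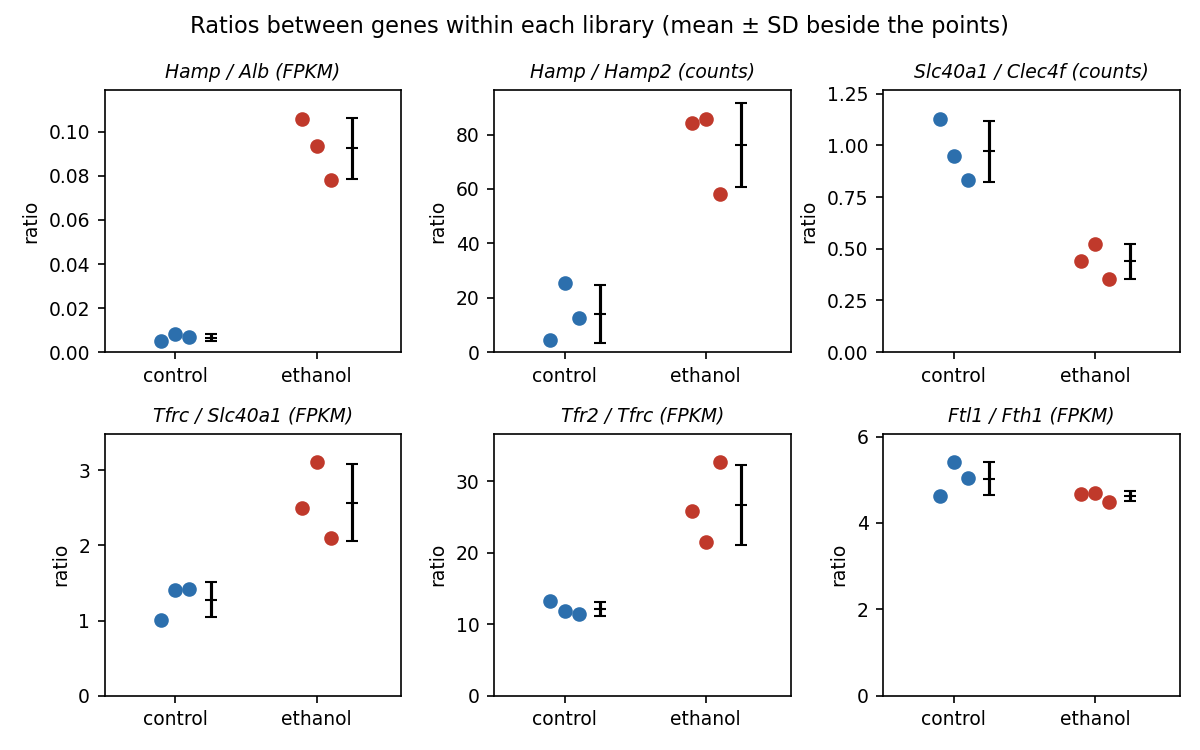
Ratios between genes within each library, which do not depend on library scaling, for 3 control (blue) and 3 ethanol-exposed (red) livers, with mean ± SD beside the points, each panel on its own axis from 0. The ratios of Hamp to Alb, Hamp to Hamp2, Tfrc to Slc40a1 and Tfr2 to Tfrc are higher in all 3 ethanol-exposed livers, Slc40a1 to Clec4f is lower in all 3, and Ftl1 to Fth1 overlaps (4.62 against 5.03 on average).

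On the FPKM scale, which allows genes to be ordered, the control livers ran from Trf (4473 ± 153, SD, n = 3) through Ftl1 (1435 ± 100), Fth1 (286 ± 2.35), Hamp (173 ± 28.4), Tfr2 (83.9 ± 2.43), Hamp2 (13.0 ± 9.63), Hfe (12.1 ± 0.679), Tfrc (6.94 ± 0.422) and Slc40a1 (5.52 ± 0.773) to Id1 (1.67 ± 0.361). Hamp2 and Hfe overlapped in this order, and every other pair of neighbours was separate. In the ethanol-exposed livers the order was Trf (3374 ± 86.3), Hamp (2751 ± 435), Ftl1 (1361 ± 57.0), Fth1 (295 ± 6.10), Tfr2 (80.2 ± 11.8), Hamp2 (25.6 ± 1.51), Hfe (7.93 ± 0.205), Id1 (7.29 ± 1.30), Tfrc (3.15 ± 1.04) and Slc40a1 (1.21 ± 0.202). Hepcidin thus moved past both ferritin subunits, and Id1 moved past Tfrc and Slc40a1 to overlap Hfe. The FPKM of Tfrc per unit of Slc40a1, a ratio of mRNAs and not of iron transport, was 2.50, 3.11 and 2.10 in the ethanol-exposed mice and 1.01, 1.41 and 1.42 in the control mice, a 2.01-fold difference without overlap (exact two-sided permutation p = 0.1, the smallest possible).

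The 5 genes with the profile closest to Hamp across the 6 libraries, by the root mean square difference of centred log2(CPM + 1), were Map3k6 (0.18), Retreg1 (0.24), Socs3 (0.25), Ciart (0.27) and Slc39a14 (0.27). All were strongly upregulated, which follows from their choice by likeness to Hamp. Map3k6, a stress-responsive kinase, rose from between 0.607 and 1.14 CPM to between 38.3 and 62.1 CPM. Retreg1, a receptor for autophagy of the endoplasmic reticulum, rose from between 34.1 and 41.3 CPM to between 701 and 1018 CPM. Ciart, a repressor of the circadian clock, had 4 to 39 reads in control and 1297 to 1699 in ethanol-exposed libraries. The measure follows the large step between the groups and describes likeness only. Adding 1 to the CPM shrinks differences that start near 0. Map3k6 and Ciart were 65.8-fold and 102-fold higher in mean CPM, against 25.3-fold for Hamp. Map3k6, Socs3 and Ciart reached the minimum mean of 10 CPM through the ethanol-exposed libraries, with control means of 0.818, 5.56 and 0.264 CPM.

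A wider list of 64 genes for iron, heme and the signals to hepcidin was read beside the 10 members. Of the 61 tested, 20 were upregulated, 1 was downregulated and 40 were not DEGs, with a median log2 fold change of 0.37, where 10.4% and 13.8% of all genes were upregulated and downregulated. Erfe, the erythroid hormone that lowers hepcidin, had no read in any library, and Steap1 and Ltf did not pass the filter. With library size alone the list had 11 upregulated and 6 downregulated genes of 61, where 5.06% and 32.2% of all genes were called. With limma on log2(FPKM + 1) it had 6 and 3 of 52, where 3.92% and 16.9% of all genes were called. The median of the list was -0.31 and -0.22 under these settings, and that of all genes tested -0.71 and -0.46. Genes upregulated or downregulated under every alternative that kept them were Id3, Stat3, Socs3, Slc39a14, Scara5, Slc25a28 and, in the downward direction, Steap3.

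Of the ligands and receptors of the BMP route, none was a DEG on the TMM scale. Bmp6, the main endothelial ligand that raises hepcidin with iron load, measured 2.52, 4.06 and 1.04 CPM in the ethanol-exposed mice and 2.86, 3.60 and 3.33 CPM in the control mice. The groups overlapped in CPM (log2 fold change -0.36, SE 0.45, edgeR adjusted p = 0.543), and without the third ethanol-exposed library the value was 0.02. With library size alone it was -1.0 (edgeR adjusted p = 0.107), and the FPKM of 0.467, 0.806 and 0.190 against 0.864, 1.09 and 1.00 did not overlap. Bmp2, the other endothelial ligand, had a log2 fold change of 0.40 (edgeR adjusted p = 0.244), with library size alone -0.28. The co-receptor hemojuvelin (Hjv) had one of 0.04 (edgeR adjusted p = 0.784, with library size alone -0.63 and an adjusted p of 0.00230) and Tmprss6, the protease that cleaves it, one of 0.23 (edgeR adjusted p = 0.263, with library size alone -0.43). Without the third ethanol-exposed library the value of Tmprss6 was 0.39 (edgeR adjusted p = 0.00516), under the fold threshold. The receptors Acvr1, Bmpr1a, Acvr2a and Bmpr2, named after their values were seen, had log2 fold changes of -0.14, 0.27, -0.08 and 0.32 (edgeR adjusted p of 0.508, 0.0913, 0.678 and 0.232). In FPKM the first 3 of them and Hjv were lower in every ethanol-exposed mouse, and Bmpr2 overlapped. That is the general direction in FPKM, where 57.4% of all genes tested were lower without overlap, and it does not single out these genes. Smad1, which relays the signal to the nucleus, was upregulated from between 10.6 and 12.6 CPM in controls to between 35.0 and 39.2 CPM (log2 fold change 1.66, SE 0.11, edgeR adjusted p = 1.43e-04), although with library size alone it was 0.99. The feedback inhibitors Smad6 (log2 fold change 0.33, edgeR adjusted p = 0.278) and Smad7 (0.05, edgeR adjusted p = 0.920) were not DEGs, and with library size alone their values were -0.32 and -0.63. Without the third ethanol-exposed library Smad6 was at 0.51 (edgeR adjusted p = 0.0482) and Smad7 at -0.28 (edgeR adjusted p = 0.387). Atoh8, a target of the route that acts on hepcidin, was upregulated by 1.09 (SE 0.19, edgeR adjusted p = 0.00430), but its value was 0.42 with library size alone (edgeR adjusted p = 0.116) and 0.94, under the fold threshold, without the first ethanol-exposed library. Bmper, a binding protein of BMPs, was called at 42 to 94 reads against 0 to 16 (log2 fold change 3.40, SE 0.94, edgeR adjusted p = 0.0241), a call lost without the first ethanol-exposed, the first control or the third control library (edgeR adjusted p of 0.0555, 0.0570 and 0.0728). In all, 3 of the 17 tested genes of this route were upregulated and none was downregulated. Over all genes tested, 10.4% were upregulated and 13.8% downregulated. Smad1 and Atoh8, of these 3, were not called with library size alone. Bmper, with 0 to 16 reads in the controls, passed the filter on low counts only with the help of the ethanol-exposed libraries. The filter thus favoured a higher value, and the call of Bmper adds little to the count.

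The relatives of Id1 were all called. Id3 measured 209, 291 and 87.4 CPM in the ethanol-exposed mice and 14.8, 16.0 and 16.1 CPM in the control mice. The controls were tight and the ethanol-exposed mice spread widely, with the third the lowest (log2 fold change 3.65, SE 0.42, edgeR adjusted p = 8.00e-04). Id2 was upregulated by 1.48 (SE 0.21, edgeR adjusted p = 0.00170), or 0.80 with library size alone. Id4, at 1.53 to 2.49 CPM in the ethanol-exposed mice, had a log2 fold change of 1.06 (SE 0.30, edgeR adjusted p = 0.0257) that lost its call when any library but the first ethanol-exposed one was left out.

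Of the IL-6 and STAT3 route, 3 of 8 genes were upregulated and none was downregulated, beside 10.4% and 13.8% of all genes tested. Socs3, the feedback inhibitor that STAT3 induces, measured 140, 122 and 143 CPM in the ethanol-exposed mice and 3.39, 6.84 and 6.46 CPM in the control mice. The groups were far apart (24.2-fold, log2 fold change 4.60, SE 0.29, edgeR adjusted p = 9.88e-05), a size like that of Hamp. Stat3 itself measured 259, 247 and 319 CPM against 66.7, 71.6 and 63.9 CPM (log2 fold change 2.03, SE 0.13, edgeR adjusted p = 1.21e-04). Il6ra, the IL-6 receptor, was upregulated by 1.43 (SE 0.21, edgeR adjusted p = 0.00223), or 0.75 with library size alone, while its signalling partner Il6st was not a DEG (0.29, edgeR adjusted p = 0.129, with library size alone -0.38). The STAT motif of both hepcidin promoters is shown in capitals above, and binding to it was not measured here.

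**Figure D4:**
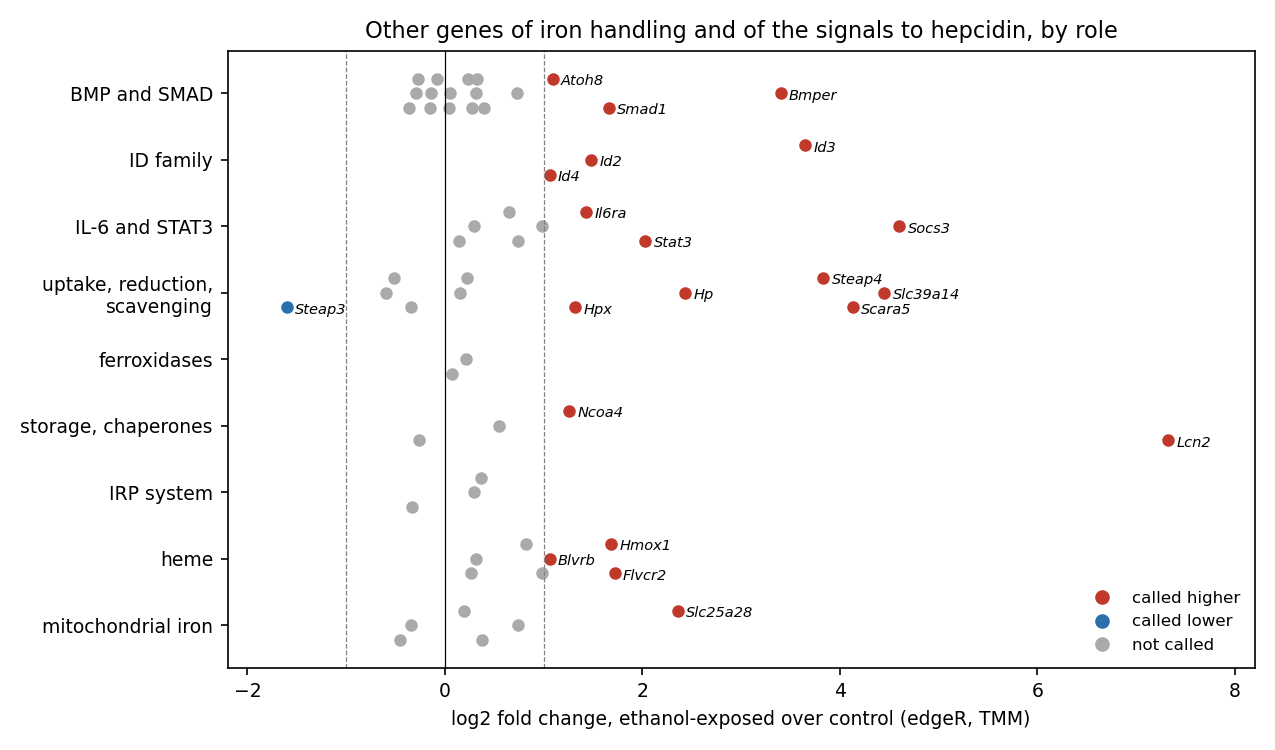
Log2 fold change (edgeR with TMM, ethanol-exposed over control) of the 61 tested genes of the wider list, 1 point per gene in rows by role, coloured by call, with dashed lines at the fold threshold. Socs3 (4.60) and Slc39a14 (4.45) stand far right with values that hold under every alternative, Lcn2 (7.32) rests mainly on 1 library, and Steap3 (-1.60) is the only gene called lower. Points near 0, among them Bmp2, Hjv, Tmprss6, Smad6, Smad7, Il6st, Aco1 and Ireb2, change sign with library size alone.

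Of 11 tested genes of iron uptake, reduction and scavenging, 5 were upregulated, 1 was downregulated and 5 were not DEGs. The shares over all genes tested were 10.4% upregulated and 13.8% downregulated. Slc39a14, which encodes ZIP14, the importer of iron not bound to transferrin, measured 1834, 1690 and 1952 CPM in the ethanol-exposed mice and 91.1, 81.5 and 77.9 CPM in the control mice. The groups were 21.9-fold apart with little spread (log2 fold change 4.45, SE 0.14, edgeR adjusted p = 1.62e-05). Steap3, the endosomal ferrireductase that works with the transferrin receptor, measured 9.12, 10.3 and 8.61 CPM against 31.2, 26.7 and 27.1 CPM. It was downregulated in every ethanol-exposed mouse (log2 fold change -1.60, SE 0.13, edgeR adjusted p = 2.13e-04). Scara5, a ferritin receptor, measured 42.5, 24.5 and 101 CPM against 1.32, 4.30 and 3.95 CPM (log2 fold change 4.13, SE 0.66, edgeR adjusted p = 0.00284), and without the third ethanol-exposed library its log2 fold change was 3.41 (edgeR adjusted p = 6.98e-04).

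Steap4, Hp and Hpx, a metalloreductase and the scavengers of hemoglobin and heme, were highest by far in the third ethanol-exposed library. Steap4 measured 154, 123 and 1911 CPM in the ethanol-exposed mice and 50.4 to 52.7 CPM in the control mice. A log2 fold change of 3.83 (SE 1.07, edgeR adjusted p = 0.0252) became 1.44 without that library (edgeR adjusted p = 4.10e-05). Hp measured 4816, 3790 and 18591 CPM against 1515 to 1789 CPM, with a log2 fold change of 2.43 (SE 0.59, edgeR adjusted p = 0.0149), or 1.36 without it (edgeR adjusted p = 1.77e-04). Hpx measured 4939, 4256 and 10919 CPM against 2280 to 2988 CPM, and its log2 fold change of 1.32 (SE 0.36, edgeR adjusted p = 0.0217) became 0.78, under the fold threshold. With library size alone Hpx was not called either (0.63, edgeR adjusted p = 0.141), while limma on log2(FPKM + 1) called none of Steap4, Hp and Hpx (limma adjusted p of 0.102, 0.0546 and 0.196). Without any 1 control library, none of the 3 was called (edgeR adjusted p of 0.0567 to 0.0917). The same library had the highest Lcn2, lipocalin 2, which binds siderophores that carry iron, at 2650 CPM beside 49.7 and 36.4 CPM in the other ethanol-exposed mice and 2.70 to 7.87 CPM in the controls. The log2 fold change of Lcn2 was 7.32 (SE 1.90, edgeR adjusted p = 0.0188), and 2.92 without this library (edgeR adjusted p = 6.70e-04), while without any 1 control library it was not called (edgeR adjusted p of 0.0691 to 0.0787), nor was it by limma on log2(FPKM + 1) (limma adjusted p = 0.0528). Neutrophils also express Lcn2, and 3 of 6 neutrophil markers (S100a8, S100a9 and Retnlg) passed the filter on low counts and were upregulated. Of these, S100a8 and Retnlg had 0 to 4 and 0 to 8 counts in the controls and passed through the ethanol-exposed libraries. The filter thus favoured higher markers, and the 3 calls do not describe the list. Summed over all 6, the level was 1.77 to 10.8 CPM in the ethanol-exposed mice, highest in the third library, and 0.262 to 0.401 CPM in controls. Mpo and Elane, not tested, had 0 counts in every ethanol-exposed library and 0 to 4 and 6 to 10 counts in the controls. The part of neutrophils in these values was not tested. Hamp, in contrast, was lowest of its group in the third ethanol-exposed library. This was not particular to Hamp, since among the members Tfrc, Tfr2 and Slc40a1 were also lowest there in CPM. Hamp2 and Hfe were highest there, and Trf, Fth1, Ftl1 and Id1 lay between.

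In storage and turnover, Ncoa4, the receptor that delivers ferritin to lysosomes, was upregulated from between 78.1 and 83.4 CPM in controls to between 161 and 212 CPM (log2 fold change 1.26, SE 0.13, edgeR adjusted p = 5.70e-04), or 0.60 with library size alone. The iron regulatory proteins, which bind the mRNAs of ferritin and the transferrin receptor, were not DEGs, with log2 fold changes of 0.29 for Aco1 (edgeR adjusted p = 0.103) and 0.37 for Ireb2 (edgeR adjusted p = 0.131), and of -0.38 and -0.31 with library size alone. Without the third ethanol-exposed library Aco1 was at 0.38 (edgeR adjusted p = 0.0148), under the fold threshold. Neither of the ferroxidases Cp and Heph was a DEG. Of 6 genes of mitochondrial iron, Slc25a28 (mitoferrin 2) was upregulated, at 69.0, 80.7 and 71.7 CPM against 13.8, 15.5 and 13.9 CPM (log2 fold change 2.36, SE 0.11, edgeR adjusted p = 5.92e-05). The other 5 were not DEGs, where 10.4% of all genes tested were upregulated and 13.8% downregulated.

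Of 7 heme genes, 3 were upregulated and none was downregulated, beside 10.4% and 13.8% of all genes tested. Hmox1, which releases iron from heme, measured 18.5, 17.2 and 43.0 CPM against 7.74, 8.91 and 7.88 CPM (log2 fold change 1.68, SE 0.35, edgeR adjusted p = 0.00830, 1.14 without the third ethanol-exposed library). It was under the fold threshold with limma on log2(FPKM + 1) (0.78, limma adjusted p = 0.0487) and lost its call at the threshold with library size alone (1.00, edgeR adjusted p = 0.0352). Blvrb, a biliverdin reductase, was upregulated by 1.06 (SE 0.17, edgeR adjusted p = 0.00318), but its value was 0.39 with library size alone, and 0.90 and 0.97 without the first ethanol-exposed or the first control library, none of them a call. Flvcr2, of the FLVCR transporter family, was upregulated by 1.72 (SE 0.29, edgeR adjusted p = 0.00358). With library size alone its value was 1.06 (edgeR adjusted p = 0.0223). It was not called by limma on log2(FPKM + 1) without the filter (0.43, limma adjusted p = 0.0710). Hemoglobin mRNAs moved in the same direction, with 4 of 5 tested erythroid markers upregulated and sums of 579 to 864 CPM in ethanol-exposed and 180 to 220 CPM in control mice. Slc4a1, the anion exchanger of the red cell membrane, had 0, 0 and 0 counts in ethanol-exposed and 0, 8 and 0 in control libraries, so it was near 0 in both groups. The part of blood in the heme gene values was not tested.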

How the data were processed

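Liver RNA of 3 acute ethanol-exposed and 3 control mice was sequenced in pairs of 150 bases. The authors deposited whole-number counts per gene, not normalised, and beside them FPKM values, scaled to transcript length and library size. Adaptor, low-quality and ambiguous reads had been removed by the authors. The aligner, the counter and its strand setting are not given in the sources used here, and the submitters' processing notes name GRCm38 and mm10. In the table, 1 column of counts matches no sample and was not used.

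Counts were analysed in R 4.3.3 with edgeR 4.0.16 (filterByExpr, TMM, quasi-likelihood test, two-sided, no covariates), with Benjamini-Hochberg adjustment over the 16717 genes tested. DEGs passed 0.05 for the adjusted p and 1 for the absolute log2 fold change. The biological coefficient of variation (common dispersion) was 0.299. At these depths the 3 mice per group limit the precision more than counting does. Ratios were compared by exact permutation of the 6 libraries. The members and gene lists were chosen with earlier results of these data known. Named genes are the 10 members, every DEG of the wider list, its main regulators whether called or not, the 5 genes closest to Hamp (mean CPM of at least 10) and copies of members. The wider list holds the genes of BMP and SMAD signalling, the ID family, IL-6 and STAT3 signalling, iron uptake and scavenging, ferroxidases, storage, iron regulatory proteins, heme and mitochondrial iron. The list also named Ftmt, which has no row in the table. Markers were those of hepatocytes, Kupffer cells, sinusoidal endothelial cells, erythroid cells, neutrophils and other monocytes or macrophages. Of the last list, 6 genes were tested and 1 (Ccr2) was downregulated, beside 13.8% of all genes tested. Ccr2 had 0 counts in every ethanol-exposed library and 37 to 56 in the controls, and passed the filter on low counts through the controls. Its call does not describe the list.

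Alternatives were other scalings and filters, DESeq2 1.42.0, limma 3.58.1 on log2(FPKM + 1) or log2(FPKM + 0.1) for genes with an FPKM of at least 1 in 3 libraries, the replicate number as a block, and each library left out. Removal of the trend with transcript length and the ratios of Slc40a1 to every Kupffer and endothelial marker were chosen after seeing the data. All tests were tried on simulated data in which 200 genes had been changed. No library was a duplicate, since those of a group differed by more than sampling noise (chi-square 49.6 to 496 per degree of freedom).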

Additional observations from a re-analysis of the deposited data

How the results depend on the processing

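Directions near 0 depend on scaling, because the TMM factors separate the groups, while the calls of Hamp, Id1 and Slc40a1 held under every alternative that kept them. Requiring a mean FPKM of at least 5 left 1 member upregulated and 0 downregulated, because Id1 and Slc40a1 were not tested there and Hamp2 lost its call, and the wider list with 10 and 0 (9.91% and 10.2% of all genes tested there). Without a fold threshold 6 members were higher and 1 lower, and the wider list had 28 and 5 (21.5% of all genes in each direction). Library size alone, and limma on log2(FPKM + 0.1), gave 2 downregulated members, Tfrc being added. For the wider list, upregulated and downregulated genes numbered 11 and 6 with library size alone (5.06% and 32.2% of all genes), 7 and 5 with limma on log2(FPKM + 0.1) (4.94% and 30.7%), and 6 and 3 with limma on log2(FPKM + 1), with the filter (3.92% and 16.9%) or without it (1.43% and 6.40%). Leaving out 1 library gave 13 (without the first control) to 20 upregulated genes (8.57% to 10.9% of all genes).

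Signs were reversed as follows, and the cause was not tested beyond the scaling. With library size alone the log2 fold changes were -0.06 for Tfr2, -0.40 for Trf, -0.07 for Ftl1, -0.60 for Hfe, -0.28 for Bmp2, -0.63 for Hjv, -0.43 for Tmprss6, -0.32 for Smad6, -0.63 for Smad7, -0.38 for Il6st, -0.38 for Aco1 and -0.31 for Ireb2. With limma on log2(FPKM + 1), filtered or not, they were -0.07 for Tfr2, -0.41 for Trf, -0.08 for Ftl1, -0.55 for Hfe, -0.19 for Bmp2, -0.62 for Hjv, -0.45 for Tmprss6, -0.20 for Smad6, -0.35 for Il6st, -0.37 for Aco1, -0.29 for Ireb2 and, unfiltered, -0.27 for Smad7. With log2(FPKM + 0.1) they were -0.08 for Tfr2, -0.41 for Trf, -0.08 for Ftl1, -0.60 for Hfe, -0.30 for Bmp2, -0.63 for Hjv, -0.46 for Tmprss6, -0.34 for Smad6, -0.39 for Il6st, -0.38 for Aco1 and -0.32 for Ireb2. With a mean FPKM of at least 5 they were -0.01 for Trf, -0.20 for Hfe, -0.23 for Hjv and -0.05 for Tmprss6, and with upper quartile scaling -0.03 for Hfe, -0.06 for Hjv and -0.05 for Smad7. Leaving out 1 library each gave -0.87 to 0.02 for Bmp6, -0.04 to 0.10 for Hjv and -0.28 to 0.28 for Smad7.

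Replicate numbers did not pair the libraries (correlations of -0.04, -0.03 and -0.01 between same-numbered libraries). With the number as a replicate block, 3 members were upregulated and 1 downregulated, Hamp measured 4.67, and the wider list had 18 and 1, without Id4 and Steap4 (9.08% and 12.0% of all genes). Under the replicate block Smad7 measured -0.01. The calls lost with left-out libraries stand beside the genes above.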
